A study of Mus musculus with 24 samples.

Results

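The clustered protocadherin genes were taken as all protein-coding genes on mouse chromosome 18 whose symbol follows the Pcdha, Pcdhb, Pcdhga, Pcdhgb or Pcdhgc numbering, together with Pcdhac1 and Pcdhac2. Of the 21887 protein-coding genes in the RefSeq table of GRCm38.p6, 57 met this rule: 14 in the alpha cluster, 22 in the beta cluster and 21 in the gamma cluster. The rule used names and position only, and no measured value. The transcribed pseudogene Pcdhgb8 fell outside it, as did 3 genes whose spans run from an alpha start to the gamma 3′ end (Gm37013, Gm38666 and Gm38667).

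The study mapped the transcription factors SOX8 and SOX9 in retinas of wild-type mice, aged postnatal day 2 (P2), while late-born retinal cell types are still being generated, or postnatal day 17 (P17). It used CUT&RUN, in which an antibody brings a nuclease to a chromatin protein and the DNA released around that protein is sequenced. At each age 4 SOX8 libraries (2 antibodies), 2 SOX9 libraries and 2 each for H3K4me3, H3K27ac and a nonspecific IgG were made from 600000 nuclei per reaction. The mouse strain and the number of animals are not given in the sources used here. One peak list for each of SOX8, SOX9, H3K4me3 and H3K27ac at each age was analysed, 8 lists in all, and the IgG libraries were not analysed here.

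Protocadherins are cadherin-like adhesion proteins of the neuronal surface. In the alpha and gamma clusters each member has its own promoter and its own large first exon, the variable exon, which encodes the extracellular, transmembrane and proximal cytoplasmic parts and is spliced to constant exons at the 3′ end of the cluster. Beta genes are single variable exons without a constant part. A neuron chooses a few of the alternate promoters, with CTCF and cohesin joining a promoter to distant enhancers, whereas the C-type members at the 3′ end of the alpha and gamma clusters are mostly expressed without such a choice. The resulting surface code lets sister branches of one neuron recognise and avoid each other, and in the retina gamma protocadherins are known for this role in starburst amacrine cells. The histone mark H3K4me3 is typical of active promoters, and H3K27ac of active promoters and also of enhancers.

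Within the clusters, the H3K4me3 and SOX peaks lay in the C-type ends of alpha and gamma, while H3K27ac also lay at a few alternate members. At P17, H3K4me3 lay at the 5′ ends of Pcdhac2, Pcdhgc3 and Pcdhgc4, and at P2 at that of Pcdhgc3 alone. The only SOX8 peak in the 3 clusters spanned the 5′ end of Pcdhgc4 at P17, and the only SOX9 peak lay near the gamma 3′ end at P17. Neither factor had a peak in the clusters at P2. The peak lists give no height and no value per library, and how libraries were combined into them is not given. There is therefore no replicate error, and none of these differences was tested. In whole retina a mark in fewer cells and a weaker mark in each cell cannot be told apart.

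**Figure D1:**
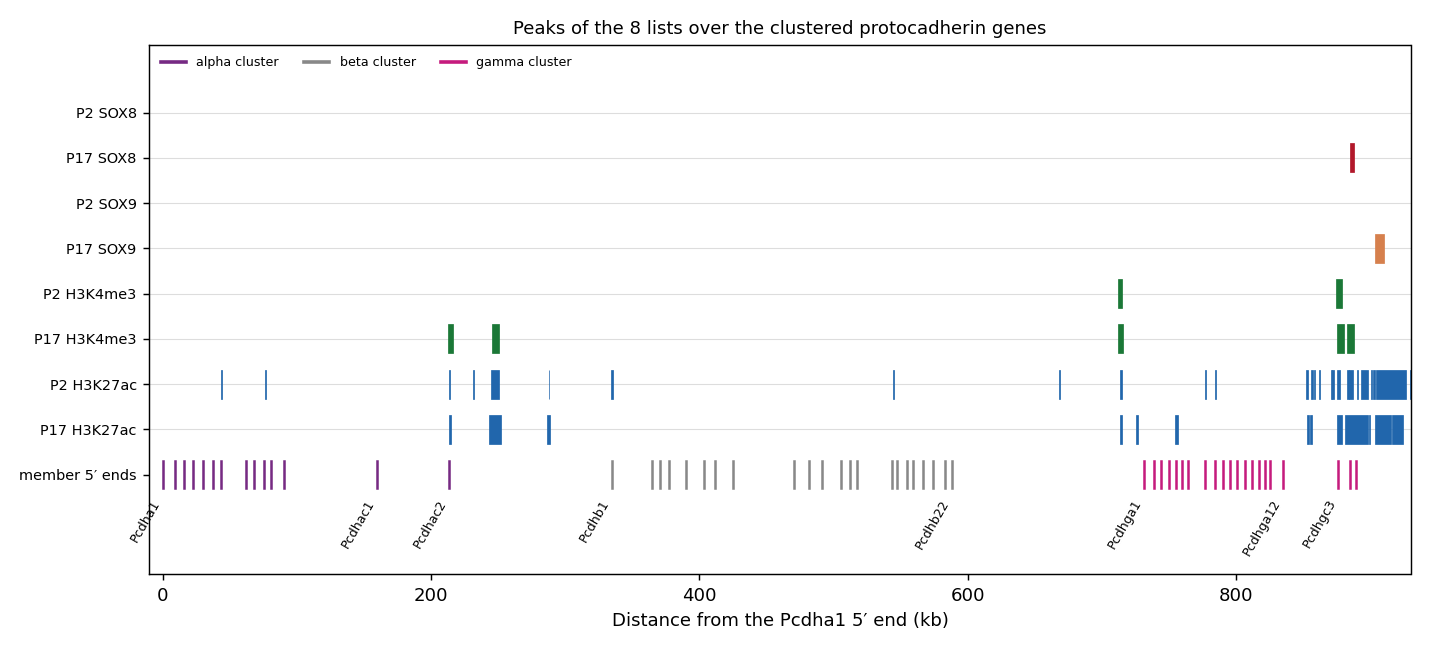
Peaks of the 8 lists over the 3 clusters, with distance from the Pcdha1 5′ end in kb on the x axis and 1 row per list; each box is 1 peak (drawn with a thin edge, so the narrowest look slightly wider), and ticks in the bottom row are the 5′ ends of the 57 members coloured by cluster. The SOX rows hold 1 box for P17 SOX8 and 1 for P17 SOX9, both at the right end, and the beta cluster holds peaks of P2 H3K27ac only.

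Because alpha and gamma transcripts overlap, a member was counted at its own 5′ end, when a peak came within 1 kb of it. By this rule the P2 SOX8 list had a peak at 0 of 57 members, while 11.6% of all protein-coding genes had one. In the P17 SOX8 list this was 1 of 57, against 8.36% of all genes. For SOX9 the counts were 0 of 57 at P2 (21.7% of all genes) and 0 of 57 at P17 (10.2% of all genes). H3K4me3 was found at 1 of 57 members at P2, against 42.7% of all genes, and at 3 of 57 at P17, against 44.0%. H3K27ac was found at 9 of 57 members at P2, which is 15.8% (95% Wilson interval 8.54 to 27.4%) against 65.1% of all genes, and at 5 of 57 at P17, which is 8.77% (3.81 to 18.9%) against 45.6%. The intervals cover counting error only, and neighbouring members are not independent of each other. In all 8 lists the members' share was thus below that of all genes, and 47 of 57 members had no peak at the 5′ end in any list, as did 32.0% of all genes.

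**Figure D2:**
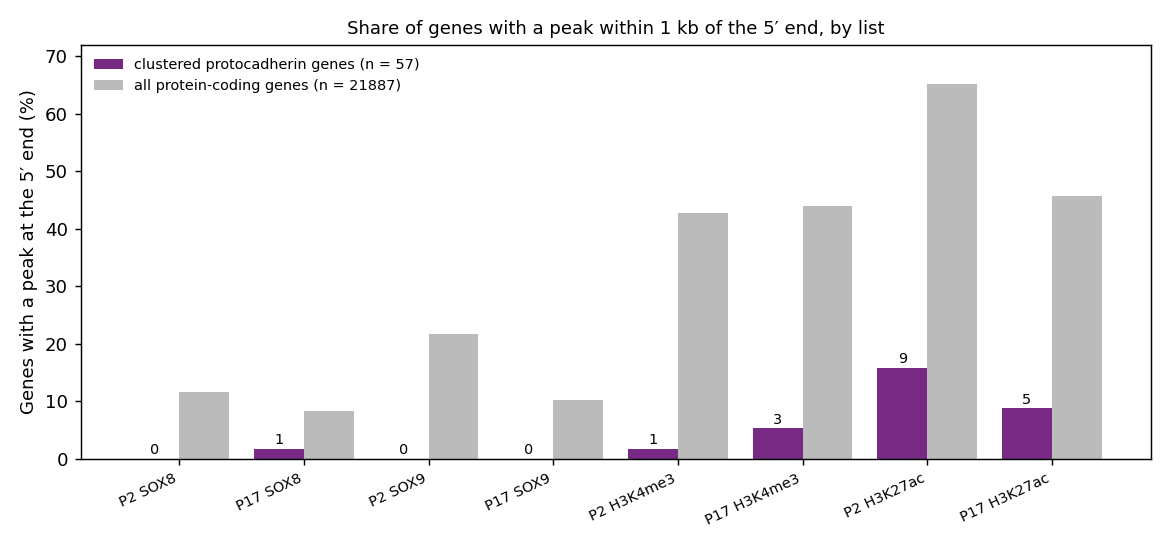
Share of genes with a peak within 1 kb of the 5′ end (y axis, percent) in each of the 8 lists, for the 57 clustered protocadherin genes (purple, with their number above the bar) and for all 21887 protein-coding genes (grey). The purple bar is the shorter one in every list, between 0 and 15.8%.

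Of the 10 members with a peak in any list, 4 were C-type and 6 were not. Of the 5 C-type genes, 3 had H3K4me3 at P17 and 1 at P2, against 0 of the 52 others at either age. H3K27ac lay at 4 of 5 C-type genes at both ages, the exception being Pcdhac1. Among the 52 others it lay at 5 at P2 (Pcdha7, Pcdhb1, Pcdhb15, Pcdhga6 and Pcdhga7) and at 1 at P17 (Pcdhga4). Members with H3K27ac at both ages thus numbered 4 of 57, all C-type, against 43.8% of all genes. The P2 H3K27ac count of 9 depended on narrow peaks: 5 members remained with peaks of at least 1000 bp, and 0 when the P2 list was shortened to as many of its widest peaks as the P17 list holds. The P17 count of 5 became 3 with the wider 50% of that list, and the counts rose to 25 at P2 and 22 at P17 when either end of a gene was allowed, an alternative added once the data had been seen, which counts the shared gamma 3′ end for every gamma member.

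Pcdhgc3, the most 5′ of the gamma C-type genes, was the one member of 57 with H3K4me3 at both ages, a state found at 39.3% of all genes. Its P2 peak covered 4543 bp (chromosome 18, 37804930 to 37809472), from 1480 bp before to 3062 bp after the 5′ end at 37806410. The P17 peak covered 5423 bp (37805150 to 37810572) and contained 4323 bp of the P2 peak, or 95.2% of it. H3K27ac spanned the same 5′ end with 2256 bp at P2 and 3841 bp at P17. No SOX list had a peak there.

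H3K4me3 at P17 only was found at 2 of 57 members, Pcdhac2 and Pcdhgc4, and at a similar share, 4.75%, of all genes. Pcdhgc4, known to be needed for the survival of inhibitory interneurons, had H3K4me3 at P17 and not at P2. The P17 peak covered 5350 bp (37813122 to 37818471), from 1957 bp before to 3392 bp after the 5′ end at 37815079, and ranked 1560 of 9629 by width in its list. H3K27ac was already present at P2, with a peak of 2720 bp spanning the 5′ end and another of 1022 bp that ended 745 bp before it. Neither of these P2 peaks was wide enough to be in the shortened P2 list. At P17 both lay inside a single H3K27ac peak of 17338 bp (37811187 to 37828524), which ranked 1592 of 29909 by width. That peak overlapped 4 P2 peaks, which together filled 10164 bp, or 58.6%, of it.

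The P17 SOX8 peak at Pcdhgc4 covered 3579 bp (37814837 to 37818415), from 242 bp before to 3336 bp after the 5′ end. Its width ranked 753 of 2400 in the P17 SOX8 list. It lay wholly within the P17 H3K4me3 and P17 H3K27ac peaks of Pcdhgc4, and 74.7% of it lay within P2 H3K27ac. Its centre was over 1 kb inside the gene, so by centre the list had a peak at 0 members, and with a window of 2000 bp it had one at 2, Pcdhgc4 and Pcdhgc5. No SOX9 peak overlapped it at either age.

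Pcdhgc5, the last member, whose 5′ end is at 37819546, had no H3K4me3 peak within 1 kb at either age. The P17 H3K4me3 peak of Pcdhgc4 ended 1075 bp before this 5′ end, just outside the window. With a window of 2000 bp, 4 members had P17 H3K4me3 in place of 3. The Pcdhgc5 5′ end lay inside the 17338 bp H3K27ac peak of P17. At P2 a narrower H3K27ac peak of 1189 bp began 592 bp after the 5′ end, and one of 5345 bp followed from 3746 bp after it. The first of these lay within the P17 peak and the other overlapped it.

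The P17 SOX9 peak covered 6493 bp (37833827 to 37840319) between the Pcdhgc5 5′ end and the shared 3′ end of the gamma genes at 37841873. It began 14281 bp after the Pcdhgc5 5′ end and ended 1554 bp before the shared 3′ end, so it was at no member's promoter. Its width ranked 827 of 2855 in the P17 SOX9 list. Of its bases 98.1% lay in a P17 H3K27ac peak of 11948 bp (37833950 to 37845897) and 89.9% in a P2 H3K27ac peak of 22748 bp (37834486 to 37857233). The latter was the widest peak of any list in the locus and ranked 589 of 287845 by width. It reached past the gamma 3′ end into Diaph1, a gene for a formin that promotes actin filament growth, whose lower end is at 37843601. A further P17 H3K27ac peak of 7722 bp (37846621 to 37854342) lay wholly inside this P2 peak. H3K4me3 was not found under this SOX9 peak at either age. The table gives the ends of genes and not their exons, so whether the peak lay on a constant exon was not determined.

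At P2 the nearest SOX9 peak to any member was beyond the cluster, inside Diaph1. It covered 3122 bp (37878632 to 37881753) and began 59086 bp after the Pcdhgc5 5′ end, or 36759 bp after the shared 3′ end. H3K27ac peaks of both ages overlapped it, over 93.2% of its bases at P2 and 87.4% at P17, and H3K4me3 did not. At P17 no SOX9 peak was there, and the P17 SOX9 peak described above had no P2 counterpart. Enhancers that act on the gamma cluster are known downstream of it. Their positions are not in the table used, so no peak was matched to one.

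**Figure D3:**
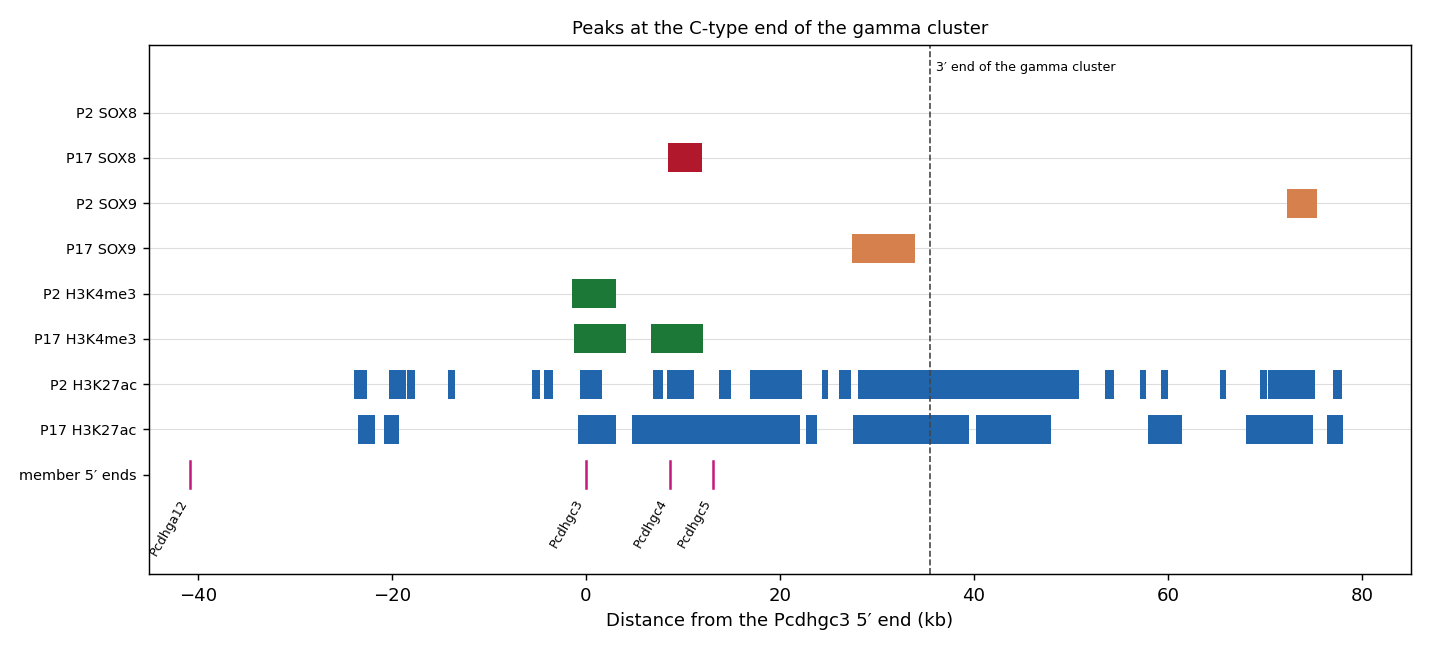
Peaks of the 8 lists around the gamma C-type genes, with distance from the Pcdhgc3 5′ end in kb on the x axis and 1 row per list, boxes to scale; ticks in the bottom row are member 5′ ends and the dashed line is the shared 3′ end of the gamma genes. The P17 SOX8 box lies over the Pcdhgc4 tick inside the second P17 H3K4me3 box, the P17 SOX9 box ends 1554 bp before the dashed line, and the P2 SOX9 box lies to the right of it.

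In the alpha cluster, Pcdhac2 was the one member with H3K4me3, and it had it at P17 only, a state found at 4.75% of all genes. Pcdhac2 is known for its role in the spacing of serotonergic axons. The H3K4me3 peak covered 3869 bp (37142674 to 37146542), from 1004 bp before to 2864 bp after the 5′ end at 37143678. H3K27ac spanned the same 5′ end at both ages with similar widths, 1197 bp at P2 and 1332 bp at P17, and 89.9% of the P17 peak was shared with P2. The P2 peak was not wide enough to be in the shortened P2 list. The P17 H3K27ac peak was among the narrowest of its list, at rank 29561 of 29909. Pcdhac1, the other alpha C-type gene, at 37090136, had no peak within 1 kb in any list.

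Wider peaks of both marks lay further into the alpha 3′ part, between the Pcdhac2 5′ end and the cluster's 3′ end at 37188897. A P17 H3K4me3 peak of 5638 bp (37175531 to 37181168) began 31853 bp after the Pcdhac2 5′ end, at no annotated 5′ end of a member. It was the widest H3K4me3 peak in the clusters. H3K27ac overlapped this H3K4me3 peak with 5864 bp at P2 and 9068 bp at P17 (37173574 to 37182641). The region thus carried H3K27ac at both ages and H3K4me3 at P17 only. The P2 H3K27ac peak covered 95.8% of the later H3K4me3 peak. A separate P2 H3K27ac peak of 858 bp, 17901 bp after the Pcdhac2 5′ end, had no P17 counterpart. Beyond the alpha 3′ end, in the interval before the beta cluster, there was 1 H3K27ac peak at each age, of 634 bp at P2 and 1995 bp at P17 (37216489 to 37218483), and they overlapped. Known enhancers of the alpha cluster lie in and after its 3′ part. As for the gamma cluster, no peak was matched to one. No SOX list had a peak in the alpha cluster or in the interval after it.

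**Figure D4:**
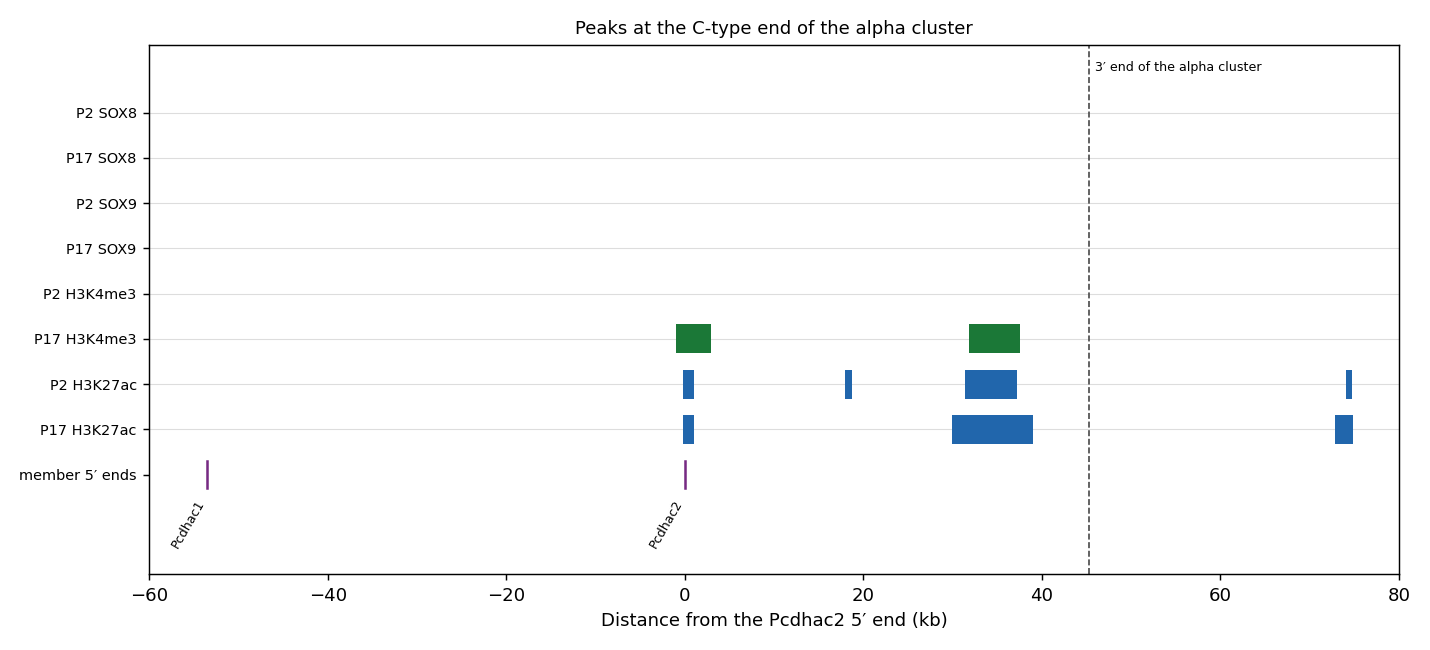
Peaks of the 8 lists around the alpha C-type genes, with distance from the Pcdhac2 5′ end in kb on the x axis and 1 row per list, boxes to scale; ticks are member 5′ ends and the dashed line is the 3′ end of the alpha cluster. The P17 H3K4me3 row holds 2 boxes, at the Pcdhac2 tick and 31853 bp after it, the P2 H3K4me3 and all SOX rows are empty, and H3K27ac boxes of both ages lie at each place.

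The 12 alternate alpha genes, Pcdha1 to Pcdha12, had a peak at a single 5′ end, in the P2 H3K27ac list. This peak of 561 bp began 32 bp after the 5′ end of Pcdha7. A P2 peak of 815 bp began 1013 bp after that of Pcdha10 and so fell just outside the 1 kb window. Both were narrow for their list, at ranks 277155 and 225141 of 287845, and neither overlapped a P17 peak. Pcdha1, at the 5′ end of the locus, had no peak within 1 kb in any list. The alpha start of Gm38667 lies 9 bp from that of Pcdha7 and had the same P2 H3K27ac peak, whereas those of Gm37013 and Gm38666, at Pcdha4 and Pcdha6, had none.

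In the beta cluster there was no peak of SOX8, SOX9 or H3K4me3 at either age and none of H3K27ac at P17. Its 22 genes, from Pcdhb1 to Pcdhb22, lay within a stretch without a P17 H3K4me3 peak that ran for 460973 bp, from 37181168 to 37642142, and 51 of 269 such stretches on chromosome 18 were at least as long. For P17 H3K27ac the corresponding stretch was 425154 bp, with 43 of 1062 at least as long. The P2 H3K27ac list had 2 peaks in the cluster. One of 897 bp spanned the 5′ end of Pcdhb1, and one of 1208 bp began 813 bp after that of Pcdhb15, inside this gene of 2795 bp. Pcdhb22 and the other 19 beta genes had none. Between these 2 P2 peaks, 208918 bp held no P2 H3K27ac peak. The 5′ ends of 14 beta genes lay there, including that of Pcdhb15, which is within 1 kb of the peak that follows. On chromosome 18, 5 of 11099 stretches without such a peak were at least as long.

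The alternate gamma genes comprise 12 of type A and 6 of type B. H3K27ac lay at 2 of them at P2 and 1 at P17, against 65.1% and 45.6% of all genes. None had it at both ages, a state found at 43.8% of all genes. At P2 it lay at Pcdhga6 (865 bp, from 49 bp after the 5′ end) and Pcdhga7 (581 bp, spanning the 5′ end). Both peaks were narrow for their list, at ranks 211882 and 274422 of 287845. Neither was in the shortened list, which had no peak at any member's 5′ end, C-type genes included. At P17 H3K27ac lay at Pcdhga4 (2010 bp, from 587 bp before to 1422 bp after the 5′ end). No type B gene had a peak, and neither did Pcdhga1 or Pcdhga12, the first and last of these genes, within 1 kb. Pcdhgb8 had none either. Between Pcdhga12 and Pcdhgc3, away from any member's 5′ end, 2 H3K27ac peaks of P17 (1729 and 1543 bp) each overlapped a P2 peak (1325 and 1767 bp), and 4 further P2 peaks of 700 to 944 bp had no P17 counterpart. A P17 peak of 1561 bp that ended 4883 bp before the Pcdhga1 5′ end had no P2 counterpart.

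Counted by position over the 3 clusters with 5 kb on either side, the lists held 0 (P2 SOX8), 1 (P17 SOX8), 0 (P2 SOX9), 1 (P17 SOX9), 1 (P2 H3K4me3), 4 (P17 H3K4me3), 23 (P2 H3K27ac) and 11 (P17 H3K27ac) peaks. The beta cluster contributed 2 of these peaks, both of P2 H3K27ac. The alpha cluster held 2 P17 H3K4me3, 5 P2 H3K27ac and 2 P17 H3K27ac peaks. All others, including both SOX peaks, were in the gamma cluster. With 0 or 1 SOX peak per list, these counts are near what the density on chromosome 18 gives over such a length: in the clusters there were 0 peaks per Mb of P2 SOX8 and P2 SOX9 and 1.38 each of P17 SOX8 and P17 SOX9, against 0.902, 1.82, 0.651 and 0.776 on the chromosome. For H3K4me3 the density was 1.38 per Mb at P2 and 5.52 at P17, against 2.79 and 3.08, and for H3K27ac 31.7 and 15.2, against 127.0 and 12.1. Of the 23 P2 H3K27ac peaks 10 overlapped a P17 peak, and of the 11 P17 peaks 8 overlapped a P2 peak. The corresponding shares for the complete H3K27ac lists, of 287845 (P2) and 29909 (P17) peaks, were not worked out. Whether the overlap in the clusters is unusual therefore cannot be told. In the shortened P2 list 3 of the 23 were left.

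Coverage was uneven along the locus. Over the 3 clusters P2 H3K27ac covered 6.35% and P17 H3K27ac 6.94% of bases, against 22.2% and 7.37% of chromosome 18. H3K4me3 covered 0.627% at P2 and 2.8% at P17, against 1.11% and 1.31% of the chromosome. The single peaks of P17 SOX8 and P17 SOX9 covered 0.494% and 0.895%, against 0.192% and 0.386% of the chromosome. The gamma C-type stretch, from 5 kb before Pcdhgc3 to 5 kb after the gamma 3′ end, held 28023 of the 46048 bp of H3K27ac in the clusters at P2 and 34508 of 50308 bp at P17. In its 45.5 kb, H3K27ac covered 61.6% at P2 in 10 peaks and 75.9% at P17 in 5 peaks. H3K4me3 covered 9.99% and 23.7% of the same stretch. The alpha C-type stretch, from 5 kb before Pcdhac1, was covered by H3K27ac over 7.28% at P2 and 9.56% at P17, and by H3K4me3 over 0% and 8.74%. H3K27ac covered 4.58% and 3.73% of the gamma A and B stretch. In the stretch of Pcdha1 to Pcdha12 it covered 0.861% at P2 and 0% at P17, and in the beta cluster 0.79% and 0%. These stretches were drawn after the peaks had been seen and are a description.

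**Figure D5:**
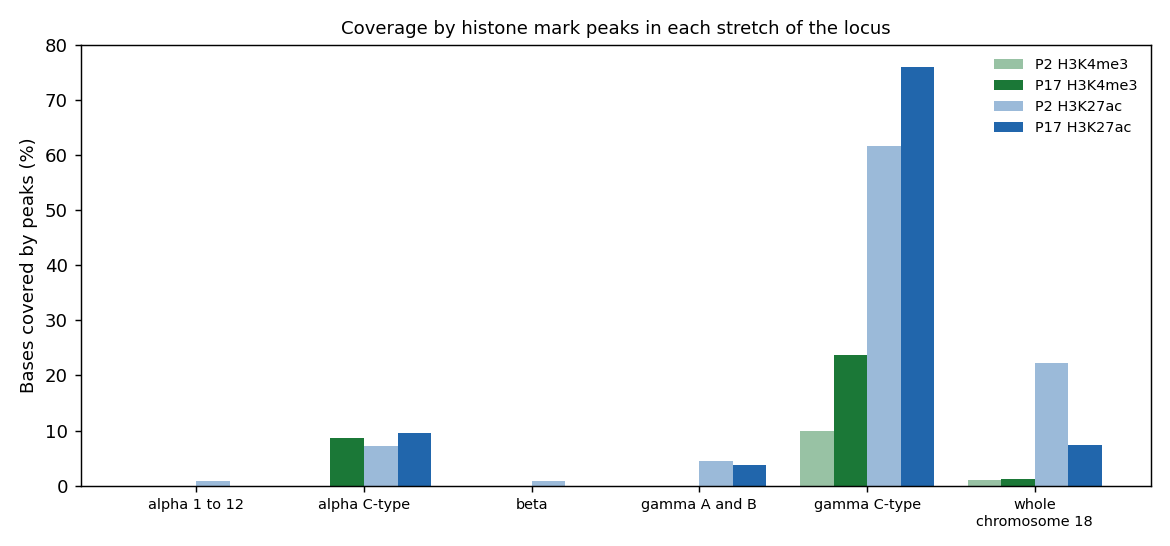
Percent of bases covered by H3K4me3 and H3K27ac peaks (y axis) in 5 stretches of the locus and on the whole of chromosome 18, with P2 in pale and P17 in full colour. The gamma C-type stretch reaches 61.6% at P2 and 75.9% at P17 for H3K27ac, while the alpha 1 to 12 and beta stretches stay under 1%.

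Stretches without SOX peaks around the members were long, though not rare on this chromosome. The P2 SOX8 list had no peak over 1582182 bp around the locus, from 36561979 to 38144162, a stretch that holds all 57 members. All 57 also lay in the stretch without a P2 SOX9 peak, of 1316979 bp, and in that without a P17 SOX9 peak, of 1271548 bp. Of the stretches between neighbouring peaks on chromosome 18, 19 of 78 were at least as long for P2 SOX8, 17 of 158 for P2 SOX9 and 20 of 67 for P17 SOX9. The median distance from a member's 5′ end to the nearest peak was 458925 bp for P2 SOX8, 341291 bp for P17 SOX8, 389167 bp for P2 SOX9 and 360281 bp for P17 SOX9.

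Genes next to the clusters, and 1 of the 2 between them, carried the promoter mark at both ages. H3K4me3 and H3K27ac lay at an end of all 3 nearest genes upstream (Hars, Hars2 and Zmat2) and all 3 downstream (Diaph1, Hdac3 and Rell2) at P2 and at P17. Of the 2 genes between the beta and gamma clusters, Taf7, which encodes a subunit of the general transcription factor TFIID, had both marks at both ages, and Slc25a2, a mitochondrial ornithine carrier, had neither. The H3K4me3 peak at Taf7 covered 2675 bp at P2 and 3711 bp at P17. None of these 8 genes had a SOX peak at an end.

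Among the 12 non-clustered protocadherins, which are single genes outside these clusters, H3K4me3 lay at 9 at P2 and 7 at P17 (42.7% and 44.0% of all genes), and H3K27ac at 11 and 3 (65.1% and 45.6% of all genes). SOX9 had a peak at Pcdh1 and Pcdh10 at P2 and at Pcdh1 and Pcdh8 at P17, and SOX8 at none. For the lists that follow, the share of all genes with a peak is 21.7% for P2 SOX9, 10.2% for P17 SOX9, 11.6% for P2 SOX8 and 8.36% for P17 SOX8. Of 12 genes for factors that act on clustered protocadherin promoters, SOX9 peaks lay at 7 at P2 (Ctcf, Rad21, Smc3, Smchd1, Stag2, Wapl and Wiz) and at 3 at P17 (Ctcf, Smc3 and Smchd1). SOX8 peaks lay at 4 of them at P2 (Ctcf, Smc3, Smchd1 and Wapl) and at 2 at P17 (Ctcf and Smc3). Ctcf, which encodes the factor that binds protocadherin promoters and enhancers, and Smc3, which encodes a cohesin subunit, had a peak in all 4 SOX lists. Of 12 partner and effector genes, SOX9 had a peak at 6 at P2 and 4 at P17, and SOX8 at 5 and 3. Cyfip2 and Wasf1, both of the WAVE complex that protocadherin tails bind, were in all 4 SOX lists. Of the other WAVE complex genes among the 12, Nckap1 had SOX8 and SOX9 peaks at P2 only, and Abi1 was in no SOX list. The share of all genes found in all 4 SOX lists was not worked out, also for Ctcf and Smc3. H3K4me3 lay at 9 regulator and 9 partner genes at P2 and at 10 of each at P17, of 12 in each list, against 42.7% and 44.0% of all genes.

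As a check of the tissue, H3K4me3 lay at 3 of 3 Müller glia genes at P2 (Glul, Rlbp1 and Slc1a3). At P17 it lay at 1 of the 3 (Glul), while H3K27ac lay at all 3 at both ages. Of all genes, 42.7% had H3K4me3 at P2 and 44.0% at P17, and 65.1% had H3K27ac at P2 and 45.6% at P17. At 0 of 5 genes of erythroid cells, microglia, endothelium, lens and pigment epithelium was there an H3K4me3 peak at either age. H3K27ac lay at 2 of them at P2, Cldn5 (endothelium) and Cryaa (lens), and at 0 of 5 at P17. Of the amacrine genes, Gad1 had H3K4me3 at both ages and Tfap2a at neither, and of the ganglion cell genes Rbpms had it at P2 and Pou4f2 at neither age. The 8 lists differ in length, from 2400 to 287845 peaks, and their depth is unknown. Variable exons of neighbouring members resemble each other in sequence, and how reads that match more than one place were treated is not given in the sources used here; its part in the low counts was not tested.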

How the data were processed

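The deposited values are the start and end of each peak in base pairs, in 8 peak lists with 349901 peaks, 1 list per target and age; the other deposited fields (name, score, strand) are empty or 0. The submitters' processing notes name GRCm38, Bowtie2 and SEACR without role or version. The threshold, the use of IgG and the way in which the authors combined libraries are not given in the sources used here. Positions are counted from 1. Peaks were set against genes of RefSeq GRCm38.p6. Strand was known from its promoter table for 17492 of 21887 protein-coding genes, and either end was used for the other 4395; members, which lack a strand there, were counted at the lower coordinate, the end that alpha and gamma members do not share and which was taken as the 5′ end of beta genes too. A peak was assigned to a gene when it overlapped the 1000 bp on either side of that end. Cluster spans had 5000 bp added on either side, and overlap meant 1 bp or more. No test was possible without replicate values. Overlap calls were tested on simulated data. Python 3.11.15, numpy 2.4.6, pandas 2.3.3, scipy 1.17.1 and matplotlib 3.10.9 were used.

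The members and gene lists were chosen with earlier results of these data known. Named were all members with a SOX or H3K4me3 peak at the 5′ end, the first and last of each cluster, the C-type genes and the 3 widest peaks per cluster and list; members with H3K27ac only were named after their values were seen. Alternatives were other windows, peak centres, wider peaks only, trimmed peaks, spans without the added 5000 bp and a shortened P2 H3K27ac list. Part of a planned check of cell type genes is not reported here.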

Additional observations from a re-analysis of the deposited data

How the results depend on the processing

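No paired analysis was possible because the lists hold no value per replicate, and for the same reason no library could be left out. The reported count of members was 0 for P2 SOX8, P2 SOX9 and P17 SOX9. Alternatives that narrow the window or drop peaks could not change it. Of 49 alternative counts of members with a peak, these unchanged ones included, 40 were equal to the reported one or within 1.5 times it. The exceptions were P17 SOX8 (2 with a 2000 bp window, 0 by peak centre), P2 H3K27ac (5 with the wider 50% of the list, 5 with peaks of at least 1000 bp, 0 with the shortened list, 25 with either gene end) and P17 H3K27ac (3 by peak centre, 3 with the wider 50%, 22 with either gene end). Of 25 alternative counts of peaks in the clusters, 22 were equal to the reported one or within that factor. They include the counts of 0 for P2 SOX8 and P2 SOX9, which could not change because these alternatives only drop peaks or narrow the spans. For P2 H3K27ac the count was 11 with the wider 50% and 3 with the shortened list, and for P17 H3K27ac it was 5 with the wider 50%. Without the added 5000 bp, coverage of the clusters was 0.515% (P17 SOX8), 0.934% (P17 SOX9), 0.654% (P2 H3K4me3), 2.92% (P17 H3K4me3), 5.84% (P2 H3K27ac) and 6.6% (P17 H3K27ac). With peaks trimmed to 500 bp it was 0.069% for both P17 SOX lists and P2 H3K4me3, 0.276% for P17 H3K4me3, 1.59% for P2 H3K27ac and 0.621% for P17 H3K27ac, values set by how many trimmed peaks fall in the spans. The shortened P2 H3K27ac list covered 3.25%, and was drawn by width, which need not rank peaks as a score would. Among genes with a known strand only, a setting added after the data were seen, 63.6% had P2 H3K27ac in place of 65.1%.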
